A study of Homo sapiens with 45 samples.

Results

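PRKCB, NCKAP1L and RHOH are 3 genes best known from white blood cells that were chosen by their RNA levels, high in Ewing sarcoma cell lines and low in osteosarcoma cell lines, out of 41578 genes with a listed transcript. All 3 passed the filter on low counts in every comparison. Because the genes were selected on these values, their difference between the tumour types is given as a description, with no test. RNA had been sequenced from 7 Ewing sarcoma lines (TC71, SKES1, RDES, MHHES1, EW24, EW3 and A673) and 6 osteosarcoma lines (U2OS, SAOS2, MG63, G292, KHOS and HOS-MNNG), with 3 poly(A) libraries each. Ewing sarcoma arises in bone or soft tissue and carries a gene fusion that joins EWSR1 to an ETS transcription factor, most often FLI1, which osteosarcoma, a tumour of bone, lacks. In the other 6 libraries the cells were A673 with sh908, a short hairpin RNA that targets the potassium channel gene KCNN1 and is switched on by doxycycline: 3 were grown without the drug (uninduced) and 3 with it (induced). The sources used here do not give the dose, the time, a control hairpin or whether the sh908 cells were a clone or a pool, and parental A673 cells had neither hairpin nor drug. HOS-MNNG and KHOS both derive from the HOS line.

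PRKCB encodes protein kinase C beta, a serine/threonine kinase activated by calcium and diacylglycerol that relays signals from the B cell antigen receptor to NF-kappaB. NCKAP1L, also called HEM1, encodes the subunit of the WAVE complex found in blood cells, where it stands in for its paralog NCKAP1. The WAVE complex takes signals from the GTPase Rac and switches on the Arp2/3 complex, which builds branched actin. RHOH encodes a small GTPase of lymphocytes that does not cycle through hydrolysis of GTP and that helps bring the kinase ZAP70 to the T cell receptor.

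The sequences shown first are the parts of PRKCB and RHOH that the transcript and promoter results turn on. RefSeq promoter windows (GRCh38.p14) run from 250 bases before to 50 bases after an annotated start, and 2 of the 3 genes had windows. PRKCB had 1 window on chromosome 16 at chr16:23835733-23836032 and RHOH had 4 on chromosome 4, all on the plus strand. NCKAP1L, on chromosome 12, was not among them. The PRKCB window is shown because it carried the octamer ATGCAAAT, a motif known from promoters of B cell genes, which stands in capitals.
PRKCB promoter: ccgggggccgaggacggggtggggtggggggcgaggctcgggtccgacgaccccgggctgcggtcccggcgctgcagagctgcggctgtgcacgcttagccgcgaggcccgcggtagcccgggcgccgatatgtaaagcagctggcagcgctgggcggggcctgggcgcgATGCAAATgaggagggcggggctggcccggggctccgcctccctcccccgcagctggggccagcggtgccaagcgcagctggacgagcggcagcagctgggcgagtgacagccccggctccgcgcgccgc

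The RHOH window at chr4:40196781-40197080 is shown because the leading RHOH transcript of the Ewing lines starts there: the GENCODE release 29 entry matched to NM_004310 starts at base 40196907. Capitals mark GGAA, the core letters bound by ETS family factors.
RHOH promoter: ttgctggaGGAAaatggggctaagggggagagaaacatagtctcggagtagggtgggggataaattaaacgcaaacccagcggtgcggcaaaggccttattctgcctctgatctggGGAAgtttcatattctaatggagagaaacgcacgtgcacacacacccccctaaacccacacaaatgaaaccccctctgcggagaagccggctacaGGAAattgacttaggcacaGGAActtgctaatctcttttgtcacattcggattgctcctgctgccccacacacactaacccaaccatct

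The motifs GGAA, its tandem GGAAGGAA and the octamer were searched on both strands, with overlapping matches of GGAA counted inside the tandem, and they were chosen with the windows in view. PRKCB had no GGAA, which 95.5% of all 35116 windows held, and 1 octamer, which 1.77% held. The RHOH windows, in the order of their positions, held 1, 2, 4 and 4 GGAA, against a median of 3 over all windows. The tandem stood in the RHOH window at chr4:40193413-40193712, and 3.67% of all windows held it. An octamer stood in the RHOH window at chr4:40192709-40193008. These matches describe the letters of the windows only.

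PRKCB transcripts end in alternative coding ends, which give protein kinase C beta I and beta II. In GENCODE release 29 (GRCh38) the forms share their first 621 codons. After them beta I (NM_212535) has 50 codons of its own and beta II (NM_002738) has 52. The end of beta II is shown because its share is the measure of PRKCB splicing below, and it lies in exon 17 at chr16:24214658-24214816, plus strand, with its stop codon in capitals.
PRKCB beta II end: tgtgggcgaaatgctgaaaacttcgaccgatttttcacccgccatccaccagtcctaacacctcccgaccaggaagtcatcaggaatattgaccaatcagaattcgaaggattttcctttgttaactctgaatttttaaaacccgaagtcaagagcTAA

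The last exon of beta I, of 651 bases, lies wholly inside the 5954-base last exon of beta II, downstream of the stop codon of beta II. Reads inside it fit both forms, so the split between the forms is an estimate. NCKAP1L has a long form (NM_005337, 1127 codons) and a short form (NM_001184976, 1077 codons), and the short protein equals the long one without its first 50 codons.

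Estimated counts summed to between 23132200 and 51413300 per library in the Ewing lines, 15974200 and 44911500 in the osteosarcoma lines and 16619600 and 24818700 in the sh908 libraries. Within their groups, TC71 replicate 3, EW3 replicate 1, RDES replicate 3, HOS-MNNG replicate 1, G292 replicate 1 and replicate 3 of both sh908 groups stood apart from the other libraries. Values without a library are given where they matter. Of 5 Ewing markers, 4 were higher in the Ewing lines, namely LIPI, NR0B1, NKX2-2 and STEAP1. LIPI lay at 30.1 TPM (transcript abundance scaled for length and depth) or more in every Ewing line and at 0.622 TPM or less in every osteosarcoma line, while NR0B1 was at 0.316 TPM in 1 Ewing line. Of 7 osteosarcoma and osteoblast markers, RUNX2, COL1A1 (not without SAOS2) and SPP1 were lower in the Ewing lines.

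Markers of blood cells were mixed. The pan-leukocyte marker PTPRC lay between 0.0334 and 1.23 TPM over the Ewing lines, and the B cell marker MS4A1, the T cell marker CD2 and the leukocyte adaptor TYROBP were listed at 0 in all of them. In contrast CD79A, a subunit of the B cell antigen receptor, averaged 10.8 ± 8.55 TPM over the Ewing lines and 0.247 ± 0.181 TPM over the osteosarcoma lines (SD, n = 7 and 6 lines; log2 fold change 5.46, SE 0.72, edgeR adjusted p = 0.00047), with 24.5 TPM in SKES1. Its partner CD79B, which did not pass the filter on low counts over the lines, reached 16.998 TPM in RDES. CD247, a chain of the T cell receptor complex, averaged 3.12 ± 2.496 TPM and 0.245 ± 0.252 TPM (SD, n = 7 and 6 lines; edgeR adjusted p = 0.0342). IKZF1, a lymphocyte transcription factor, reached 12.4 TPM in A673 and was higher in the Ewing lines (edgeR adjusted p = 0.0376), while LAPTM5, a lysosomal protein of blood cells, and the monocyte gene CD14 were lower. The CD247 call was lost without EW3, RDES, TC71, G292, MG63 or SAOS2, and the CD14 call without MG63 or any Ewing line other than MHHES1. That on IKZF1 was lost without A673, TC71 or any osteosarcoma line other than U2OS, and with HOS-MNNG and KHOS as 1 sample. The summed 12 leukocyte markers ranged from 14.5 TPM to 257 TPM over single Ewing libraries and from 6.81 TPM to 192 TPM over single osteosarcoma libraries. The highest sums rested on the integrin ITGB2, with a line mean of 209 TPM in TC71, and on LAPTM5, with a line mean of 166 TPM in KHOS. The part of these markers in the levels of the 3 genes was not tested.

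PRKCB RNA was abundant in every Ewing line and close to 0 in the osteosarcoma lines. The Ewing lines averaged 104 ± 58.8 TPM (SD, n = 7 lines) and the osteosarcoma lines 0.0268 ± 0.0517 TPM (SD, n = 6 lines). EW3 had the highest PRKCB level, with 246, 228 and 224 TPM in its libraries. The EW3 values lay above every library of every other line. TC71 gave 119.5, 118.9 and 67.7 TPM, and its mean of 102 TPM rose to 119 TPM without replicate 3. SKES1 gave 104.5, 89.2 and 102.9 TPM, and EW24 gave 82.3, 88.8 and 84.7 TPM. RDES gave 82.6, 77.2 and 92.8 TPM, and MHHES1 gave 77.8, 62.7 and 77.1 TPM. A673 had the lowest level, with 63.5, 51.1 and 51.3 TPM. In the order of line means, EW3 stood apart from TC71 and SKES1 from EW24, and all other neighbours overlapped in their libraries.

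U2OS held most of the little PRKCB signal of the osteosarcoma lines, with 0.101, 0.115 and 0.180 TPM. PRKCB was listed at 0 in 9 of the 18 osteosarcoma libraries, and 29.03 of the 38.2 estimated counts of all 18 lay in U2OS. The 21 Ewing libraries held 205694 estimated counts. The lowest Ewing line lay 419-fold above the highest osteosarcoma line in TPM, and edgeR put the log2 fold change at 11.998 on counts summed per line. With 1 line, or 1 replicate of every line, left out, this fold change ran from 11.76 to 13.64.

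NCKAP1L RNA was the most even of the 3 genes over the Ewing lines, at 78.6 ± 31.9 TPM (SD, n = 7 lines), against 0.0495 ± 0.0505 TPM over the osteosarcoma lines (SD, n = 6 lines). EW24 was highest with 134.5, 150.2 and 139.9 TPM, above every library of the other lines. TC71 followed with 101.4, 92.1 and 71.3 TPM. MHHES1 gave 78.6, 80.9 and 78.4 TPM, and EW3 gave 96.6, 68.7 and 69.7 TPM. The EW3 mean of 78.4 TPM became 69.2 TPM without replicate 1. RDES gave 63.01, 68.3 and 60.2 TPM, SKES1 gave 61.4, 52.7 and 56.6 TPM, and A673 was lowest with 44.6, 38.7 and 41.9 TPM. EW24, EW3 and SKES1 each lay apart from the next line in the order of means, and the other neighbours overlapped. The 18 osteosarcoma libraries held 115 estimated counts of NCKAP1L, of which 55.2 were in U2OS, the highest of those lines at 0.141 TPM. The lowest Ewing line was 296-fold above U2OS, and the log2 fold change between the tumour types was 10.68 (10.44 to 11.25 with 1 line or replicate left out).

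RHOH was lower and varied more, at 28.4 ± 17.04 TPM over the Ewing lines (SD, n = 7 lines) against 0.0694 ± 0.0476 TPM over the osteosarcoma lines (SD, n = 6 lines). EW3 gave 65.04, 43.9 and 39.5 TPM, RDES gave 42.7, 41.3 and 38.7 TPM, SKES1 gave 38.1, 36.8 and 41.8 TPM, and MHHES1 gave 38.2, 35.5 and 34.6 TPM. Neighbours among these 4 lines overlapped in their libraries. The other lines were lower and each stood apart from its neighbours: EW24 gave 15.9, 17.2 and 15.96 TPM, and A673 gave 12.8, 13.5 and 11.8 TPM. TC71 was lowest with 4.23, 3.67 and 4.97 TPM. The highest Ewing line lay 11.5-fold above the lowest, against 4.21-fold for PRKCB and 3.39-fold for NCKAP1L. That RHOH fold rests on the EW3 mean of 49.5 TPM, which became 41.7 TPM without replicate 1. TC71 was thus lowest for RHOH while it stood next to the top for PRKCB and NCKAP1L.

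The 18 osteosarcoma libraries held 85.1 estimated counts of RHOH. HOS-MNNG was the highest osteosarcoma line with 0.111, 0.243 and 0.115 TPM, and TC71 lay 27.5-fold above it. The log2 fold change of RHOH between the tumour types was 8.49 (8.31 to 8.95 with 1 line or replicate left out). For all 3 genes every Ewing line lay above every osteosarcoma line, which held for 3.19% of the 21998 genes tested, and 0.35% had a log2 fold change at least as large as that of RHOH. The genes were chosen for this difference. In bulk RNA, fewer cells with a transcript and less of it per cell cannot be told apart.

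**Figure D1:**
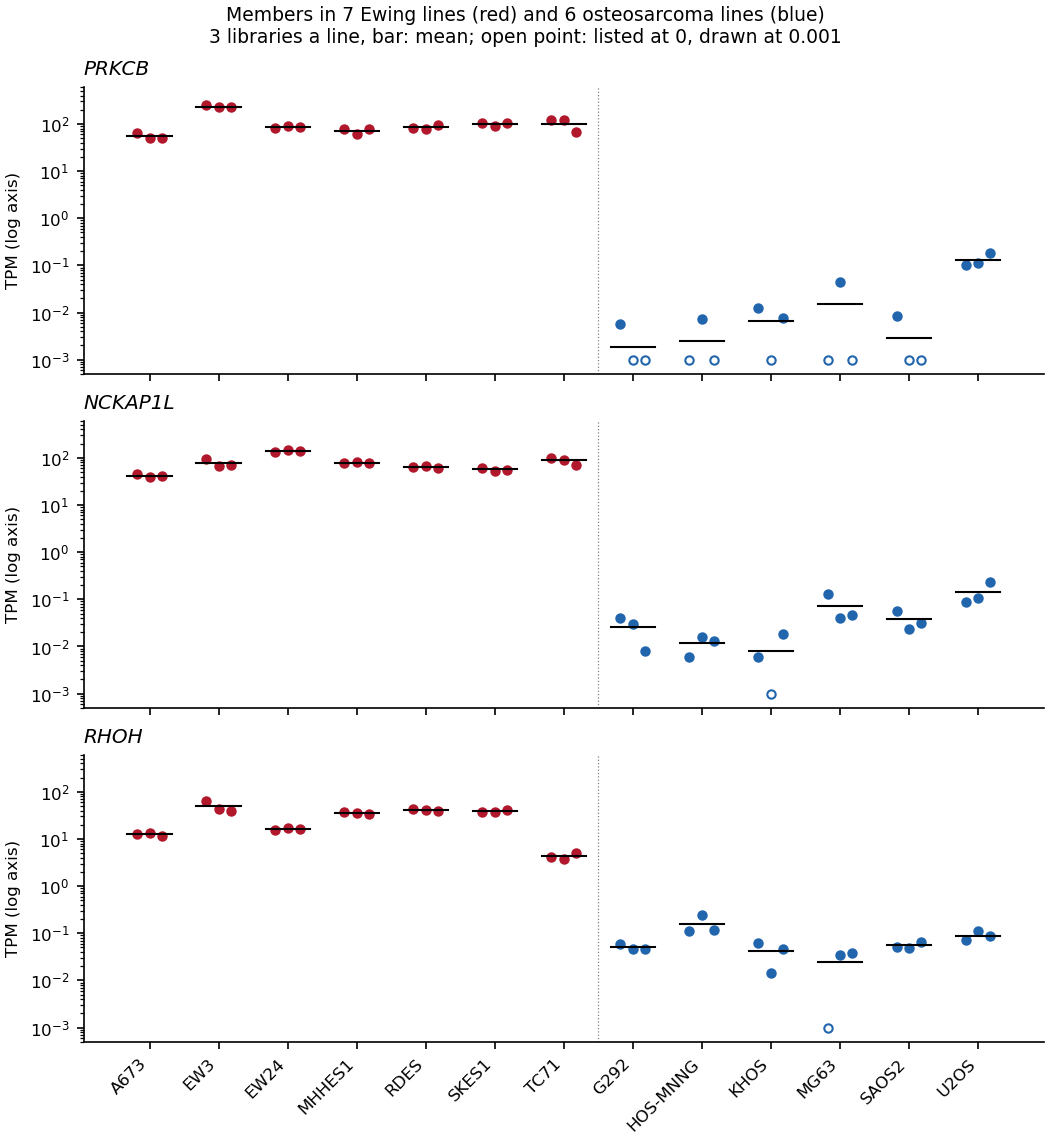
TPM of PRKCB, NCKAP1L and RHOH on a log axis in each of 3 libraries of 13 lines, with a bar at the line mean and libraries listed at 0 drawn as open points at 0.001. Every Ewing line (red) lies above every osteosarcoma line (blue), the closest pair being TC71 and HOS-MNNG for RHOH.

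The 3 genes did not share 1 order over the Ewing lines. The Pearson correlation of mean log2(TPM + 1) over the 7 lines was 0.28 between PRKCB and NCKAP1L, 0.33 between PRKCB and RHOH and -0.16 between NCKAP1L and RHOH, with Spearman coefficients of 0.36, 0.29 and -0.25. The genes whose pattern was most like that of each member were taken by Pearson r among 4761 genes with a mean of at least 5 TPM and an SD of at least 0.5 over the same 7 lines. For PRKCB they were the noncoding host gene GAS5 (r = 0.983), NUDT17 (0.979) and NUDT18 (0.978). For NCKAP1L they were STXBP2 (0.912), which encodes a syntaxin-binding protein of granule release, the adhesion gene ICAM5 (0.908) and LINC01550 (0.903). For RHOH they were the Polycomb gene RNF2 (0.978), the lipoprotein receptor gene LRP1 (0.977) and the histone methyltransferase gene SETD1B (0.976). These are the extremes of these correlations over 7 lines of unequal depth and say nothing of shared control.

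PRKCB was the protein kinase C gene with the most TPM in each of the 7 Ewing lines and in 0 of the 6 osteosarcoma lines. It made up 53.1% (A673) to 77.1% (EW3) of the summed TPM of the 9 PKC genes in the Ewing lines, with a median of 64.7%, and at most 0.104% in an osteosarcoma line. The other PKC genes either were lower in the Ewing lines or did not pass the test. Of 7 tested besides PRKCB, 0 rose and 3 fell, with a median log2 fold change of -1.49 against -0.06 over all genes. For comparison, 5.97% of all genes tested were called higher and 8.4% lower at an adjusted p under 0.05 (edgeR's quasi-likelihood test with Benjamini-Hochberg adjustment over all genes).

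PRKCA, the other widely expressed calcium-dependent PKC gene, averaged 5.96 ± 3.96 TPM over the Ewing lines (SD, n = 7 lines) against 32.5 ± 29.3 TPM over the osteosarcoma lines (SD, n = 6 lines), and fell by 2.64 on the log2 scale (SE 0.57, edgeR adjusted p = 0.0086). Its lines overlapped narrowly, from 2.28 TPM to 13.7 TPM against 13.2 TPM to 91.1 TPM. The calcium-independent forms PRKCE (-3.73, adjusted p = 0.00036) and PRKCH (-3.13, adjusted p = 0.0027) were the other falls in the same edgeR test. PRKCD (-1.49), the atypical PRKCZ (-0.81) and the atypical PRKCI (0.09) were among those that did not pass, although PRKCD passed by DESeq2 and in edgeR without EW24 or G292. With single lines left out, PRKCZ ran from -1.48 without EW24 to -0.36 without HOS-MNNG and PRKCI from 0.02 without G292 to 0.20 without SAOS2, and neither passed. PRKCI, at 33.5 ± 8.04 TPM and 29.5 ± 8.72 TPM (SD, n = 7 and 6 lines), had the next highest mean after PRKCB in the Ewing lines. PRKCQ, the form of T cells, did not pass the filter on low counts over the lines, although it reached 7.29 TPM in U2OS.

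Of 17 genes tested that act with PKC beta downstream of antigen receptors, 0 rose and 2 fell, with a median log2 fold change of -0.26. Over all lists of genes that act with the 3, here and below, 2 of 62 tested genes rose and 8 fell (16.1% called). Of all genes tested, 5.97% were called higher and 8.4% lower. PIK3CD, a phosphoinositide kinase of leukocytes, fell by 3.36 on the log2 scale (SE 0.81, edgeR adjusted p = 0.0154), and BCL10, an adaptor to NF-kappaB, fell by 1.25 on that scale (SE 0.26, edgeR adjusted p = 0.0073). BTK, a kinase of B cells, was at or below 0.277 TPM in every line. RACK1, the PKC beta anchoring protein gene, lay between 1311 and 3002 TPM over the Ewing lines and between 1757 and 3649 TPM over the osteosarcoma lines, with a log2 fold change of -0.20 that did not pass the test.

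NCKAP1L exceeded its paralog NCKAP1 in each of the 7 Ewing lines in TPM, by 1.13-fold in A673 to 4.69-fold in EW24. In the osteosarcoma lines the ratio was at most 0.00535. NCKAP1 itself measured 36.1 ± 9.0 TPM and 25.05 ± 3.17 TPM (SD, n = 7 Ewing and 6 osteosarcoma lines), a log2 fold change of 0.43 that did not pass the test (edgeR adjusted p = 0.13) but passed with library totals and no scaling factors (0.53, edgeR adjusted p = 0.0441). Of the 10 WAVE complex genes besides NCKAP1L, 1 rose and 0 fell (5.97% and 8.4% of all genes tested), with a median log2 fold change of 0.38.

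The WAVE gene that rose was WASF1, which encodes WAVE1, the form best known from the brain. Its level was 141 ± 74.0 TPM over the Ewing lines and 30.2 ± 7.89 TPM over the osteosarcoma lines (SD, n = 7 and 6 lines), with a log2 fold change of 2.07 (SE 0.29, edgeR adjusted p = 0.00078). Its lowest Ewing line, MHHES1 at 76.7 TPM, lay above its highest osteosarcoma line, SAOS2 at 42.1 TPM. The other subunits had log2 fold changes of -0.36 (CYFIP1), 0.72 (CYFIP2), 0.11 (WASF2), -1.07 (WASF3), 0.34 (ABI1), 0.42 (ABI2), 0.78 (ABI3) and -0.62 (BRK1), none of which passed. Single lines weighed on some of these values: without U2OS, CYFIP2 came to 2.77 and passed (edgeR adjusted p = 0.0319) and ABI3 came to 2.14 without passing, and without SAOS2, ABI2 came to 0.64 and passed (edgeR adjusted p = 0.0367). Without RDES, CYFIP2 came to 0.39, ABI3 to 0.38 and WASF3 to -1.77, none of which passed.

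**Figure D2:**
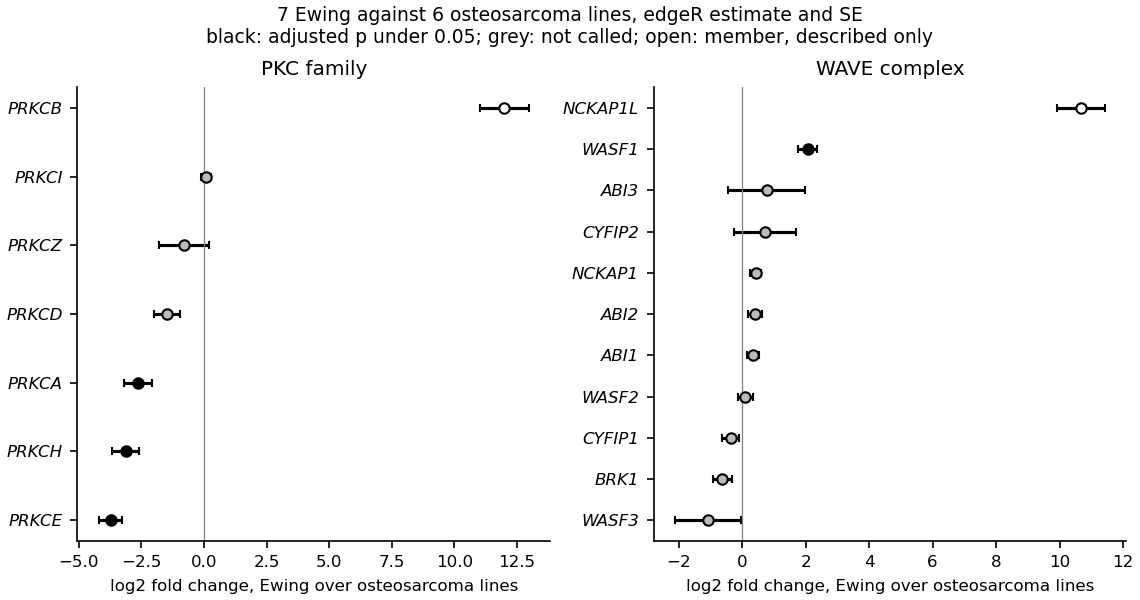
The edgeR log2 fold change (x axis, Ewing over osteosarcoma lines, bars are SE) of PKC genes and WAVE complex genes over 7 and 6 lines. Open points are PRKCB and NCKAP1L, which were chosen for this difference and are a description only. Black points passed the test, namely WASF1 above 0 and PRKCA, PRKCE and PRKCH below 0.

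Rac and its activators, which act before the WAVE complex, gave 0 rises and 0 falls among 8 genes tested (edgeR, 3 at an unadjusted p under 0.05). VAV1, the blood-cell exchange factor, ranged from 0.168 TPM to 59.7 TPM (TC71) over the Ewing lines and did not pass (log2 fold change 4.70, edgeR adjusted p = 0.11). RAC2, the Rac of blood cells, measured 5.73 ± 3.78 TPM and 36.2 ± 49.5 TPM (SD, n = 7 and 6 lines). Among 9 Arp2/3 genes 0 rose and 1 fell (5.97% and 8.4% of all genes tested). The fall was the subunit gene ARPC2 (log2 fold change -0.69, SE 0.19, edgeR adjusted p = 0.0296). That call was lost in 6 of 21 alternative settings, 5 of them without 1 line (EW3, RDES, SKES1, HOS-MNNG or KHOS) and the sixth with HOS-MNNG and KHOS as 1 sample.

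Among 7 genes of related atypical small GTPases besides RHOH, 1 rose and 1 fell (5.97% and 8.4% of all genes tested). RND2, known from neurons, rose by 3.59 on the log2 scale (SE 1.04, edgeR adjusted p = 0.035), at 22.98 ± 19.6 TPM and 1.61 ± 1.56 TPM (SD, n = 7 and 6 lines). Its call was lost in 9 of 21 alternative settings, namely without EW3, MHHES1, RDES, SKES1, G292, HOS-MNNG, KHOS or SAOS2 and with HOS-MNNG and KHOS as 1 sample. RND3, which opposes the building of actin stress fibres, fell by 3.92 on the log2 scale (SE 0.87, edgeR adjusted p = 0.0102). Of 4 tested T cell receptor partners of RHOH, 0 rose and 1 fell, the adaptor LAT (log2 fold change -2.25, SE 0.49, edgeR adjusted p = 0.0095). ZAP70, the kinase that RHOH binds, was at or below 0.125 TPM in every Ewing line, and LCK at or below 0.0775 TPM.

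The share of each PRKCB transcript was estimated from its TPM. Beta II (NM_002738.7) was the larger form in the Ewing lines with 57.4% ± 5.38 (SD, n = 7 lines), beta I (NM_212535.3) held 42.1% ± 5.47, and the predicted XM_047434365.1 held 0.461% ± 0.235. Of the estimated counts, which are not scaled for length, beta II held 80.1%, since its transcript is 8010 bases long and that of beta I 2707. RDES had the highest beta II share with 65.7% ± 4.57 (SD, n = 3), followed by MHHES1 with 63.3% ± 3.99 and TC71 with 57.98% ± 2.47. A673 with 55.7% ± 3.15, EW24 with 55.4% ± 3.62, SKES1 with 52.7% ± 2.84 and EW3 with 51.01% ± 2.13 were lower. The shares differed between lines more than between libraries of a line (permutation test of the between-line sum of squares, p = 0.00123, adjusted over 3 genes 0.0033). EW3, with the most PRKCB RNA, had the lowest beta II share.

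NCKAP1L came mostly from its long form NM_005337.5, with 91.4% ± 5.11 in the Ewing lines (SD, n = 7 lines), against 8.63% for the short form NM_001184976.2. The long form held 97.99% ± 0.424 in A673, 95.7% ± 0.876 in TC71, 94.96% ± 0.632 in EW24 and 91.5% ± 1.11 in MHHES1 (SD, n = 3). It held 88.4% ± 6.94 in EW3, 86.95% ± 4.66 in RDES and 84.1% ± 0.967 in SKES1. Libraries of EW3 and RDES spread widely, with 80.4% in EW3 replicate 1 against 92.6% at most in that line. The lines differed beyond their libraries in the same permutation test (p = 0.0022, adjusted 0.0033). For RHOH, NM_004310.5 led with 78.6% ± 5.45 (SD, n = 7 lines) among 15 transcripts, and its line means ranged from 72.3% in EW24 to 86.3% in SKES1. The 3 TC71 libraries spread from 70.8% to 94.7%. A difference between lines did not pass the same permutation test for RHOH (p = 0.0794, adjusted 0.0794), which does not show that the lines were alike. The RHOH promoter printed above is the window in which that transcript begins.

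**Figure D3:**
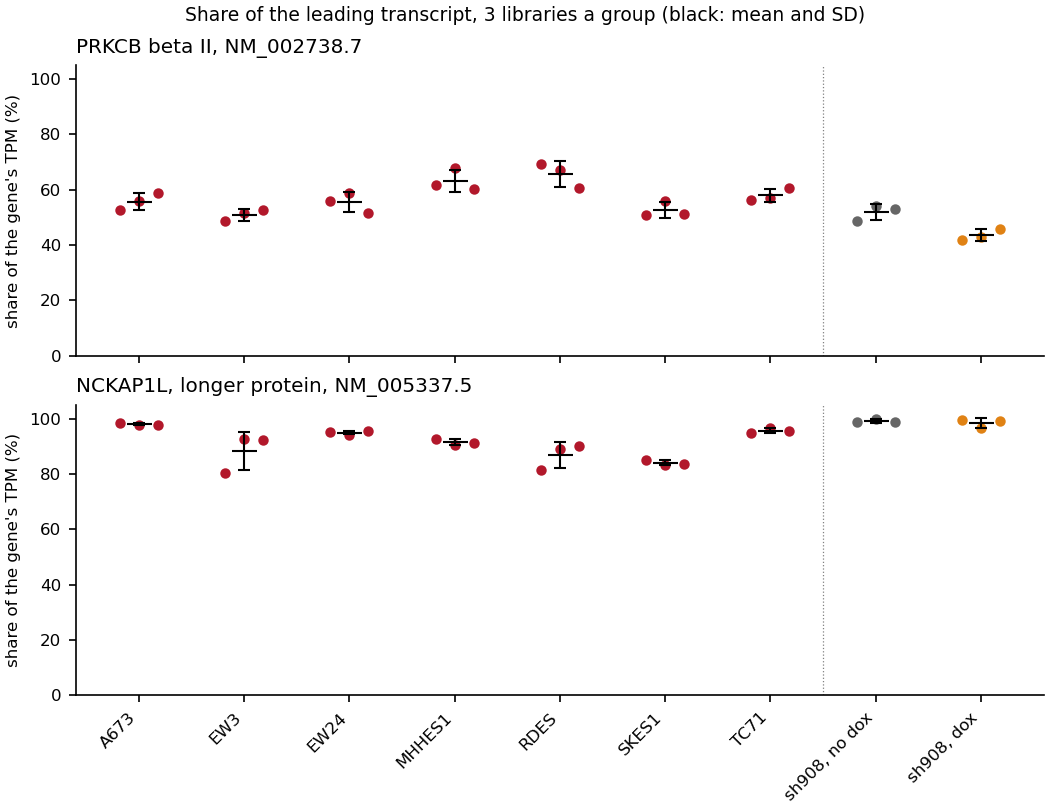
Share of the gene's TPM (%) held by PRKCB beta II (top) and by the long NCKAP1L form (bottom) in each of 3 libraries of the 7 Ewing lines and the sh908 cells, with mean and SD in black. Beta II runs from 51.01% in EW3 to 65.7% in RDES and is lowest in sh908 cells with doxycycline.

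Most of the few counts of the 3 genes in the osteosarcoma lines were assigned to other transcripts than the one that led in the Ewing lines. Of 115 NCKAP1L counts over the 18 libraries, 97.4% went to the short form, whereas the long form led in every Ewing line. Of 85.1 RHOH counts, 0 went to NM_004310.5. Of the 9.16 PRKCB counts outside U2OS, 9.13 went to XM_047434365.1. In U2OS the PRKCB counts were spread over 7.45 for beta II, 8.24 for beta I and 13.3 for the predicted transcript. So few counts set no share with precision, and no test was made.

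The second question was whether the genes changed when the hairpin against KCNN1 was induced. KCNN1 gave 37.8, 35.3 and 17.99 TPM without doxycycline and 10.2, 13.7 and 7.75 TPM with it. Every induced library lay below every uninduced one, which held for 1.46% of the genes tested. The mean with doxycycline was 34.8% of that without, with a log2 fold change of -1.46 in a model with the replicate number as a block (SE 0.13, edgeR adjusted p = 0.0013), and of -1.53 without the block (SE 0.52, edgeR adjusted p = 1.0, exact permutation p = 0.1). Same-numbered sh908 libraries deviated together, so the numbers were read as pairs, which rests mostly on replicate 3. Replicates 1 and 2 also correlated across numbers (0.61 and 0.52), so these values do not tell them apart. Without the block edgeR called 0 of 14250 genes (0%), with 94 at an unadjusted p under 0.05 and 2 called by DESeq2. With the block it called 73 genes (0.512%).

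None of the 3 genes passed the test with doxycycline in either model. PRKCB gave 70.9, 76.2 and 87.3 TPM without doxycycline and 86.3, 88.8 and 89.7 TPM with it. The groups overlapped, and the induced library was higher in 3 of 3 pairs. Its log2 fold change was 0.10 (SE 0.22), which spans -0.34 to 0.54 at 2 SE, with an edgeR adjusted p of 1.0 and of 0.70 with the block. NCKAP1L gave 39.9, 39.6 and 35.3 TPM and then 44.1, 45.9 and 35.9 TPM, again higher in 3 of 3 pairs and overlapping. Its log2 fold change was 0.18 (SE 0.33), spanning -0.48 to 0.83 at 2 SE, with an edgeR adjusted p of 1.0 and of 0.46 with the block. RHOH gave 10.6, 8.74 and 7.85 TPM and then 11.2, 10.1 and 7.31 TPM, higher in 2 of 3 pairs. Its log2 fold change was 0.12 (SE 0.38), spanning -0.65 to 0.89 at 2 SE, with an edgeR adjusted p of 1.0 and of 0.74 with the block. Exact permutation tests of log2(TPM + 1), 2-sided, gave p = 0.2, 0.3 and 0.9, where 0.1 is the smallest that 3 against 3 libraries allow. With single libraries left out the PRKCB log2 fold change ran from 0.0038 to 0.23 and did not pass. The signs for NCKAP1L and RHOH turned to -0.03 and -0.12 without uninduced replicate 3, and that of RHOH to -0.13 without induced replicate 1.

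The beta II share of PRKCB RNA did not overlap between the groups. With a smallest possible p of 0.1 the test cannot tell this from the spread of libraries. Beta II held 48.9%, 54.2% and 52.97% of PRKCB TPM without doxycycline and 42.03%, 42.8% and 45.97% with it. All induced libraries lay below all uninduced ones, by 8.42 percentage points on average (exact permutation p = 0.1, the smallest this design allows). Of 10204 transcripts with at least 30 counts in each of these libraries, from genes with 2 or more such transcripts, 4.44% had shares that lay apart in that direction. Beta I gave 36.2, 34.9 and 41.1 TPM without doxycycline and 49.7, 50.6 and 48.2 TPM with it, without overlap, as did 3.19% of 16374 transcripts with at least 30 counts in each library, while beta II gave 34.6, 41.3 and 46.3 TPM and then 36.3, 38.001 and 41.3 TPM, which overlapped. The long NCKAP1L form held 99.2% ± 0.709 and 98.4% ± 1.64 (SD, n = 3), which overlapped (exact permutation p = 0.7).

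**Figure D4:**
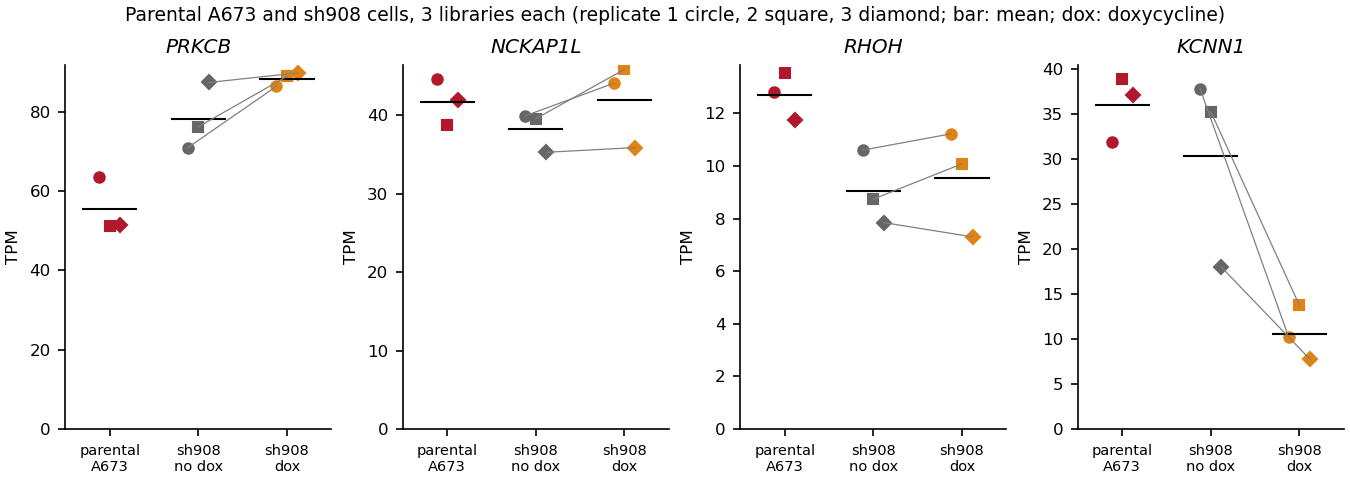
TPM of the 3 genes and of the targeted KCNN1 in parental A673, sh908 without doxycycline and sh908 with doxycycline, 3 libraries each, with grey lines joining same-numbered sh908 libraries and bars at the means. KCNN1 lies lower in every induced library, whereas the induced and uninduced values of the 3 genes overlap.

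The third comparison set uninduced sh908 cells against parental A673, which shares the uninduced libraries with the doxycycline comparison and the parental ones with the tumour comparison. The hairpin construct and the set of libraries cannot be told apart here. The 50 most abundant genes took 26.9% to 33.5% of TPM in the uninduced libraries and 20.8% to 21.7% in parental A673, and the median gene had a log2 TPM ratio of -0.41. Fold changes scaled by trimmed means (TMM) are therefore given relative to the bulk of genes and TPM beside them. Of 15776 genes, 2388 were called (15.1%; 8.72% higher and 6.42% lower), but leaving out 1 library gave 2 genes (without A673 replicate 2) to 10171 genes (without uninduced replicate 3). With library totals and no scaling factors, 740 of 2008 calls were higher, against 1375 of 2388 with TMM, and the median log2 fold change moved from 0.01 to -0.18.

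PRKCB was higher in uninduced sh908 cells than in parental A673 cells, at 78.1 ± 8.39 TPM and 55.3 ± 7.07 TPM (SD, n = 3), with every uninduced library above every parental one, as for 7.75% of all genes tested. Its log2 fold change was 0.90 (SE 0.17, edgeR adjusted p = 0.0208; exact permutation p = 0.1), and 0.50 as a plain ratio of mean TPM. The call did not hold without any single parental library (edgeR adjusted p = 0.108, 0.12 and 0.124) nor without uninduced replicate 1 (0.0523) or 2 (0.0718), and it held without uninduced replicate 3. With the replicate block the call was lost too (log2 fold change 0.89, edgeR adjusted p = 0.0659). NCKAP1L, at 38.3 ± 2.59 TPM and 41.7 ± 2.93 TPM (SD, n = 3), was not called (log2 fold change 0.37, SE 0.23, edgeR adjusted p = 0.31), and was called without uninduced replicate 3 (0.59, edgeR adjusted p = 1.5e-05). Its TPM ratio had the opposite sign (-0.13). RHOH lay lower in TPM in every uninduced library, as did 38.8% of all genes tested, at 9.07 ± 1.41 TPM and 12.7 ± 0.891 TPM (SD, n = 3, exact permutation p = 0.1), with a log2 TPM ratio of -0.49, while its TMM log2 fold change was 0.01 (SE 0.26, edgeR adjusted p = 0.98). Both PRKCB forms lay higher in every uninduced library, as did 8.89% of 16770 transcripts, with beta I at 37.4 ± 3.25 TPM and 24.3 ± 4.61 TPM and beta II at 40.7 ± 5.83 TPM and 30.7 ± 2.45 TPM (SD, n = 3, exact permutation p = 0.1 each), and the beta II share, 52.01% ± 2.79 and 55.7% ± 3.15, overlapped (exact permutation p = 0.3).

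Among 56 tested genes that act with the 3, 10 (17.9%) were called between uninduced and parental cells, near the background of 15.1%. The called rises, as TMM log2 fold change with the log2 ratio of mean TPM after it, were PRKCZ (2.26 and 1.80), the B cell kinase gene SYK (1.18 and 1.06), the WAVE subunit gene ABI3 (1.58 and 1.08) and RAC2 (1.72 and 1.23). The others were VAV1 (0.67 and 0.19), RND2 (0.96 and 0.60), CSK (0.58 and 0.11), which encodes a kinase that restrains SRC family kinases, and the Rac effector PAK1 (1.0 and 0.52). The falls were MALT1 (-0.80 and -1.11), a protease of the NF-kappaB path, and PDPK1 (-0.79 and -1.17), a kinase that primes PKC. None of the 10 calls was left without any single parental library, 5 were left without uninduced replicate 1, 1 (RAC2) without uninduced replicate 2 and 10 without uninduced replicate 3. With the replicate block 2 were left (ABI3 and RAC2), and with library totals and no scaling factors 7 (not CSK, PDPK1 or RND2). Of the markers, NKX2-2 (1.21 and 0.75), the leukocyte actin regulator gene CORO1A (1.17 and 0.66) and IKZF1 (0.51 and 0.05) were called higher, and these calls too were lost without any single parental library. In the doxycycline comparison 0 genes of all lists were called with or without the block.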

How the data were processed

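The 45 tables hold, per the file headers, estimated counts (expected counts) and TPM of 177816 RefSeq transcripts; other values per the file headers, transcript length in bases, were used to describe transcripts. The submitters' processing notes name fastp 0.19.5, kallisto 0.46.2, hg38 and GRCh38.p14, and the labels name a stranded poly(A) kit. Deposited estimated counts and TPM were summed per gene through RefSeq GRCh38.p14, which matched 95.6% of transcripts; the rest held at most 1.6% of a library's counts. Rounded counts were filtered with filterByExpr, scaled by TMM and tested with edgeR 4.0.16 (quasi-likelihood, robust), with Benjamini-Hochberg adjustment and calls under 0.05; DESeq2 1.42.0 was an alternative. The SE of an edgeR log2 fold change was taken as its size over the square root of the test's F statistic. Line comparisons used sums of the 3 libraries of a line. Single genes and shares were tested by permutation (exact, or 100000 resamples) on log2(TPM + 1) or percent shares of TPM in groups with at least 30 counts in each library.

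Same-numbered sh908 libraries correlated in their deviations at 0.68, 0.58 and 0.88, mostly through replicate 3. Uninduced replicate 1 with induced 2 gave 0.61 and uninduced 2 with induced 1 gave 0.52, so replicates 1 and 2 were not told apart. Uninduced with parental libraries correlated at 0.05, 0.09 and 0.25, of which only the last is over the 0.1 taken as pairing. Only induced with uninduced libraries were therefore paired. The labels do not say that replicates were separate cultures, so p-values of the sh908 and share tests measure the spread between these libraries. Those between tumour types measure the spread between lines. The 3 genes and all lists were chosen with earlier results of these data known. Text names the members, KCNN1, PKC and WAVE genes (some items are not reported here), up to 4 rises and 4 falls of each other list, list genes called in the sh908 comparisons, and 3 most alike genes per member; ZAP70, LCK, BTK, RACK1, VAV1, RAC2 and the markers PTPRC, MS4A1, CD2, TYROBP, CD79B and ITGB2 were added after their values were seen. The test was tried on simulated data. Tools were R 4.3.3, limma 3.58.1, Python 3.11.15, numpy 2.4.6, pandas 2.3.3, scipy 1.17.1 and matplotlib 3.10.9.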

Additional observations from a re-analysis of the deposited data

Results flagged for a closer look

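EW3 stood far above the other Ewing lines for PRKCB, with a mean of 233 TPM against 102 TPM in the next line, a gap of 0.737 of the whole range over 7 lines. U2OS stood far above the other osteosarcoma lines for PRKCB, with a mean of 0.132 TPM against 0.0151 TPM in the next, a gap of 0.898 of the range over 6 lines. Line means and leading transcript shares gave 9 such groups of lines, and chance alone flags about 1 in 20.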

How the results depend on the processing

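Every Ewing line lay above every osteosarcoma line for each of the 3 genes in TPM, which needs no scaling factor. The mean log2 difference between the tumour types moved with the pseudocount, from 6.54 at 1 TPM to 9.62 at 0.1 TPM for PRKCB, from 6.16 to 9.01 for NCKAP1L and from 4.46 to 7.08 for RHOH. DESeq2 called 5404 genes between tumour types in place of 3160, and leaving out lines or replicates gave 2296 to 3177. Library totals with no scaling factors shifted that comparison's median over all genes from -0.06 to 0.04 on the log2 scale.

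With doxycycline DESeq2 called 2 genes and the replicate block 73, and the block without replicate 1, 2 or 3 gave 10, 7 and 193; single libraries left out without the block gave 0. KCNN1 with doxycycline passed with the replicate block (-1.46) and in the block without replicate 1, 2 or 3 (-1.27, -1.49 and -1.61), and its values without single libraries ran from -1.90 to -1.24. NCKAP1L turned to -0.035 with doxycycline without uninduced replicate 3 and reached 0.41 otherwise, RHOH ran from -0.13 to 0.40, and the long NCKAP1L share difference ran from -1.39 to 0.17 percentage points.

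Between uninduced and parental cells DESeq2 called 4169 genes, the replicate block 319, the block without replicate 1, 2 or 3 gave 205, 329 and 8248, and leaving out libraries gave 2 to 10171. PRKCB did not pass with the replicate block (0.89), nor in the block without replicate 1 (0.97) or 2 (0.78), and single libraries left out gave 0.79 to 1.01. NCKAP1L gave 0.25 to 0.59 without single libraries, and 0.58, past the threshold, in the block without replicate 3. RHOH turned to -0.042 with the replicate block, to -0.25 and -0.043 in the block without replicate 1 or 2 and to -0.23 with library totals, and ran from -0.21 to 0.27 without single libraries. These numbers did not pair the libraries there, and the cause of these moves was not tested. The block changed no call on the 3 genes with doxycycline.

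WASF2 between tumour types turned to -0.0080 without KHOS and to -0.00079 with HOS-MNNG and KHOS as 1 sample. The PRKCB share range between lines of 14.7 points became 9.18 by estimated counts. Depth limits the osteosarcoma values, where a count of 0 allows up to 3 counts.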
